A study of Bos indicus with 12 samples.

Results

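The comparison set 3 low-yielding Gir cows against 3 low-yielding Shweta Kapila cows, 6 of the 12 blood libraries of the series, and took in the 15420 of 26229 gene identifiers that passed a count filter. Gir and Shweta Kapila are indigenous Indian dairy breeds of Bos indicus, the humped or zebu cattle. The 6 cows were female, in the second or the third lactation, and the low class was set within each breed from lactation records. Milk yields are not used here, so a low-yielding cow of one breed need not give as little milk as one of the other. The labels name no treatment other than the yield class, and each library is a separate cow. The other 6 cows, 3 high-yielding of each breed, are used as a second set in which the same breed difference can be read.

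The RNA was depleted of ribosomal RNA and sequenced with strand-marking libraries. Blood RNA is a mixture of the RNA of lymphocytes, monocytes, granulocytes, platelets and immature red cells, so that a gene's level moves with the number of cells that express it and with how much each of them holds. Fewer cells of a type and less RNA per cell cannot be told apart here. Breeds of one species differ in inherited regulatory and coding variants, which can set the level of a gene in blood throughout life, while stress, infection and stage of lactation move other genes from week to week.

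The labels call the cells peripheral blood mononuclear cells and also name a kit that takes in whole blood. Markers of lymphocytes were present in all 6 libraries, with the T cell receptor chain CD3E between 531.1 and 838.1 CPM (counts scaled to a library of 1 M after TMM scaling between libraries) and the B cell receptor chain CD79A between 122.2 and 1085 CPM. Neutrophils are largely removed from a mononuclear preparation, and genes used as their markers stood at unlike levels. The growth factor receptor CSF3R was between 479.3 and 1375 CPM and the calgranulin S100A9 between 462.4 and 694.0 CPM. The phosphatase ALPL was between 9.29 and 53.4 CPM, and the granule protein PGLYRP1 between 0 and 1.49 CPM. Whether neutrophils were in the preparations was not tested. The haem enzyme ALAS2 of immature red cells ran from 12.27 to 102.2 CPM.

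Total counts, in mega-counts (M), were 14.2, 17.9 and 20.7 M in Gir low 1 to low 3 and 25.9, 22.7 and 16.5 M in Shweta Kapila low 1 to low 3. The share of counts on 37 identifiers of 7 or 8 digits, which carry no gene name, was 6.27%, 6.2% and 8.70% in Gir and 13.1%, 11.7% and 5.57% in Shweta Kapila. On principal component 1 of the 6 cows (57.2% of the variance) Shweta Kapila low 1 and low 2 stood at 95.6 and 52.2 and low 3 at −71.0, with the Gir cows between at −43.2, −22.6 and −11.0. On component 2 (13.5%) the breeds did not overlap, with Gir at −17.9, −23.0 and −32.0 and Shweta Kapila at 13.7, 10.1 and 49.1. The largest of these scores was that of Shweta Kapila low 3, and whether the breeds differ on a component was not tested. Shweta Kapila low 3 thus lay on the Gir side, away from its own group, in depth, in the share of unnamed identifiers and on component 1. Its column is labelled SK7, where those of low 1 and low 2 are SK4 and SK5, and the labels do not say why the numbering skips. What the skipped number stands for is not known, and this limit holds for all values of the Shweta Kapila group. Values without low 3, or without low 1 and low 2, are given beside a number of genes and lists below.

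**Figure D1:**
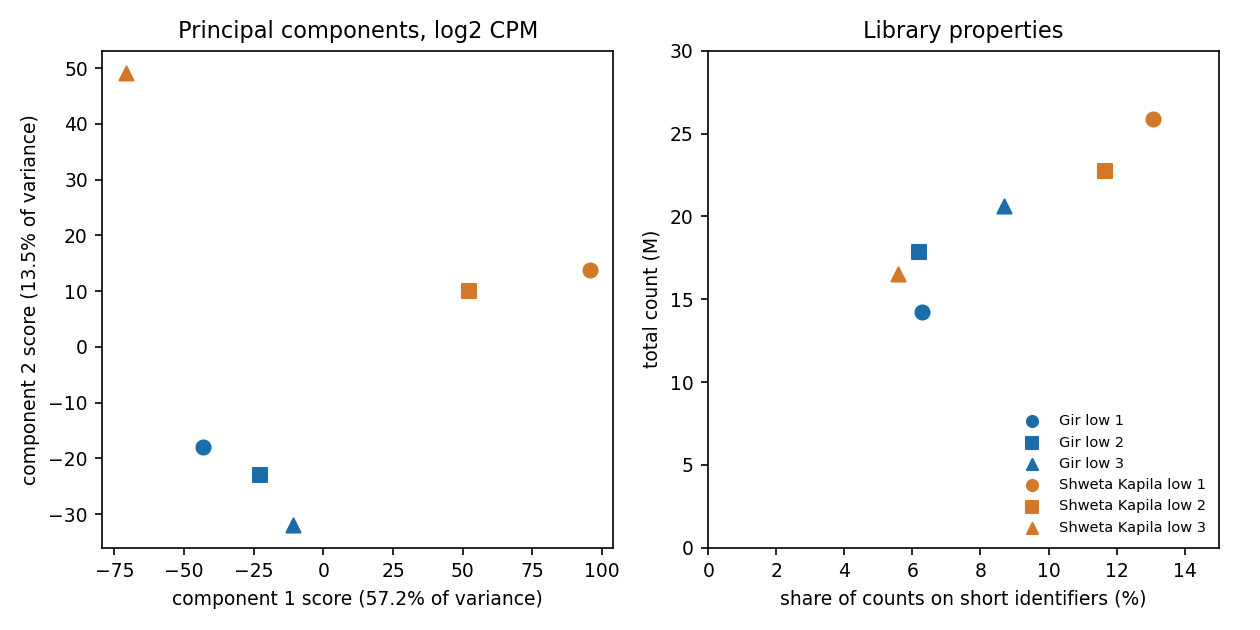
Left, scores of the 6 low-yielding cows on principal components 1 and 2 of log2 CPM over 15420 genes. Right, total count per library (M) against the percent of counts on 37 short identifiers with no name. Each point is a cow, blue for Gir and orange for Shweta Kapila. On component 1 the Shweta Kapila cows lie on both sides of the Gir cows. On component 2 the breeds do not overlap, which was not tested.

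No gene passed the test across all genes. edgeR's quasi-likelihood test, which read the spread between cows from all 4 groups of breed and yield, called 0 of 15420 genes (0.0%) at a Benjamini-Hochberg adjusted p under 0.05, and the lowest adjusted p was 0.646. At an unadjusted p under 0.05 there were 809 genes, 323 higher in Gir (2.09% of those tested) and 486 lower (3.15%), where 5% of the genes tested comes to 771. CPM values of the 2 breeds did not overlap for 767 genes on the higher side (4.97%) and 690 on the lower (4.47%). A random order of 3 cows against 3 sets the groups apart on a given side for 5% of genes, which neither count exceeded. A lack of overlap in a gene or list below is therefore a description of its values only. Over all genes the median log2 fold change, Gir against Shweta Kapila, was −0.04 and 46.7% of genes were on the higher side. DESeq2 called 21 genes (0.136%), 11 higher and 10 lower. limma-voom with sample weights called 5784 (37.5%), with a weight of 6.62 for Shweta Kapila low 2 and 0.184 for low 3, and 20 of the 21 DESeq2 calls were among them. With the 5 low-yielding cows other than Shweta Kapila low 3 alone in the fit, a setting chosen after the data were seen, edgeR called 3417 of 15240 genes (22.4%). The genes below are therefore described by their values in each cow. None of them passed edgeR's test over all 6 cows.

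Among genes with a symbol, those higher in low-yielding Gir cows were led by LRRC20, a leucine-rich repeat protein. It stood at 10.2, 11.4 and 27.7 CPM in Gir low 1 to low 3 and at 1.91, 1.70 and 4.34 CPM in Shweta Kapila low 1 to low 3. The log2 fold change was 2.64 ± 0.48 (standard error, SE), and the breeds did not overlap. From here on a value given with ± is a log2 fold change, Gir against Shweta Kapila in low-yielding cows unless named otherwise, with its SE. COL11A1, a chain of the fibrillar collagen type XI, was close to absent in Shweta Kapila. Its values were 1.90, 2.47 and 1.72 CPM in Gir against 0.0445, 0.0460 and 0.171 CPM in Shweta Kapila, from 111 counts in all against 5 (log2 fold change 4.51 ± 0.93, and 5.30 without Shweta Kapila low 3). FAM83F was at 0.543, 3.15 and 3.68 CPM against 0, 0.184 and 0.343 CPM (3.83 ± 0.92, and 4.68 without Shweta Kapila low 3), with Gir low 1 the nearest to the other breed. All 3 passed DESeq2's test (adjusted p = 7.51e-05 for LRRC20 and 0.0109 for COL11A1 and FAM83F), and none passed edgeR's (adjusted p of at least 0.646).

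CAPN3, a calcium-dependent protease best known from skeletal muscle, stood at 10.8, 10.3 and 6.35 CPM in Gir and at 4.00, 3.59 and 2.74 CPM in Shweta Kapila (log2 fold change 1.41 ± 0.34). APOBEC2, a muscle member of the cytidine deaminase family, was at 2.78, 2.78 and 4.73 CPM against 1.11, 0.230 and 0.742 CPM (2.30 ± 0.56). These were the other named genes on this side that DESeq2 called (adjusted p = 0.0373 for either). PLEKHA4, an adaptor that binds membrane phosphoinositides, had a log2 fold change of 1.82 ± 0.45 and the ubiquitin ligase TRIM7 one of 1.36 ± 0.35. In neither gene did any Gir cow fall as low as a Shweta Kapila cow.

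SIGLEC1, the sialic acid receptor CD169 of macrophages and activated monocytes, stood at 9.91, 7.24 and 9.79 CPM in Gir against 1.60, 1.66 and 2.97 CPM in Shweta Kapila. The log2 fold change was 2.12 ± 0.56, and the Gir cows formed a tight group well above the others. REC114, a protein of meiotic recombination, was at 11.3, 5.67 and 5.16 CPM against 1.38, 0.690 and 2.51 CPM (2.28 ± 0.61). SLC13A5, the sodium-coupled citrate transporter, was the most highly counted of the named genes on this side. Its values were 217.1, 140.3 and 195.6 CPM in Gir against 57.2, 70.0 and 74.0 CPM in Shweta Kapila (log2 fold change 1.46 ± 0.40), with all 3 Shweta Kapila cows alike.

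Among genes lower in Gir, GJB2, the gap junction protein connexin 26, was scarce in Gir and present in every Shweta Kapila cow. It stood at 0.543, 0.525 and 0.0478 CPM against 4.62, 1.84 and 1.71 CPM (log2 fold change −2.89 ± 0.69), and it was the only one of the 10 named genes on this side that DESeq2 called (adjusted p = 0.0168). KCNK1, a potassium leak channel, was at 3.53, 3.83 and 2.91 CPM in Gir and 11.3, 6.94 and 5.65 CPM in Shweta Kapila (−1.22 ± 0.31). FBXO16, an F-box protein, was at 0.272, 0.315 and 0.143 CPM against 0.756, 1.43 and 1.60 CPM (−2.35 ± 0.63). RADX, which binds single-stranded DNA at replication forks, was at 6.79, 3.88 and 12.1 CPM against 22.6, 15.3 and 22.5 CPM (−1.41 ± 0.38). The breeds did not overlap in any of these genes.

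SDC1, the syndecan that marks plasma cells, stood at 0.136, 0.105 and 0.0955 CPM in Gir against 1.07, 0.414 and 3.42 CPM in Shweta Kapila, from 6 counts against 93. The log2 fold change was −3.80 ± 1.07, and the highest Shweta Kapila value was that of low 3, without which it was −2.68. In high-yielding cows SDC1 lay on the other side (1.605 ± 0.94). It was there at 2.50, 0.272 and 0.310 CPM in Gir against 0.3165, 0.213 and 0.448 CPM in Shweta Kapila. SAXO1, a microtubule protein of cilia and flagella, was at 0.407, 0.420 and 0.287 CPM against 1.82, 1.01 and 0.799 CPM (−1.70 ± 0.47). OSR2, a zinc finger transcription factor, gave 4 counts in all in Gir and 64 in Shweta Kapila (−3.69 ± 1.05). HYLS1, a protein of the centriole, was the most even of the group, at 16.1, 16.5 and 16.1 CPM against 30.3, 27.7 and 28.8 CPM (−0.83 ± 0.24).

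ING2, a reader of histone methylation, and TMTC2, an enzyme of the endoplasmic reticulum, were named by the same rule although the breeds overlapped. ING2 was at 11.3, 15.3 and 13.3 CPM in Gir and 41.3, 33.1 and 15.1 CPM in Shweta Kapila, where low 3 lay among the Gir cows. Its log2 fold change of −1.16 was −1.48 without low 3 and −0.17 without low 1 and low 2. TMTC2 was at 0.136, 0.105 and 0.191 CPM in Gir and 0.0889, 2.39 and 2.74 CPM in Shweta Kapila, where low 1 lay below all the Gir cows.

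**Figure D2:**
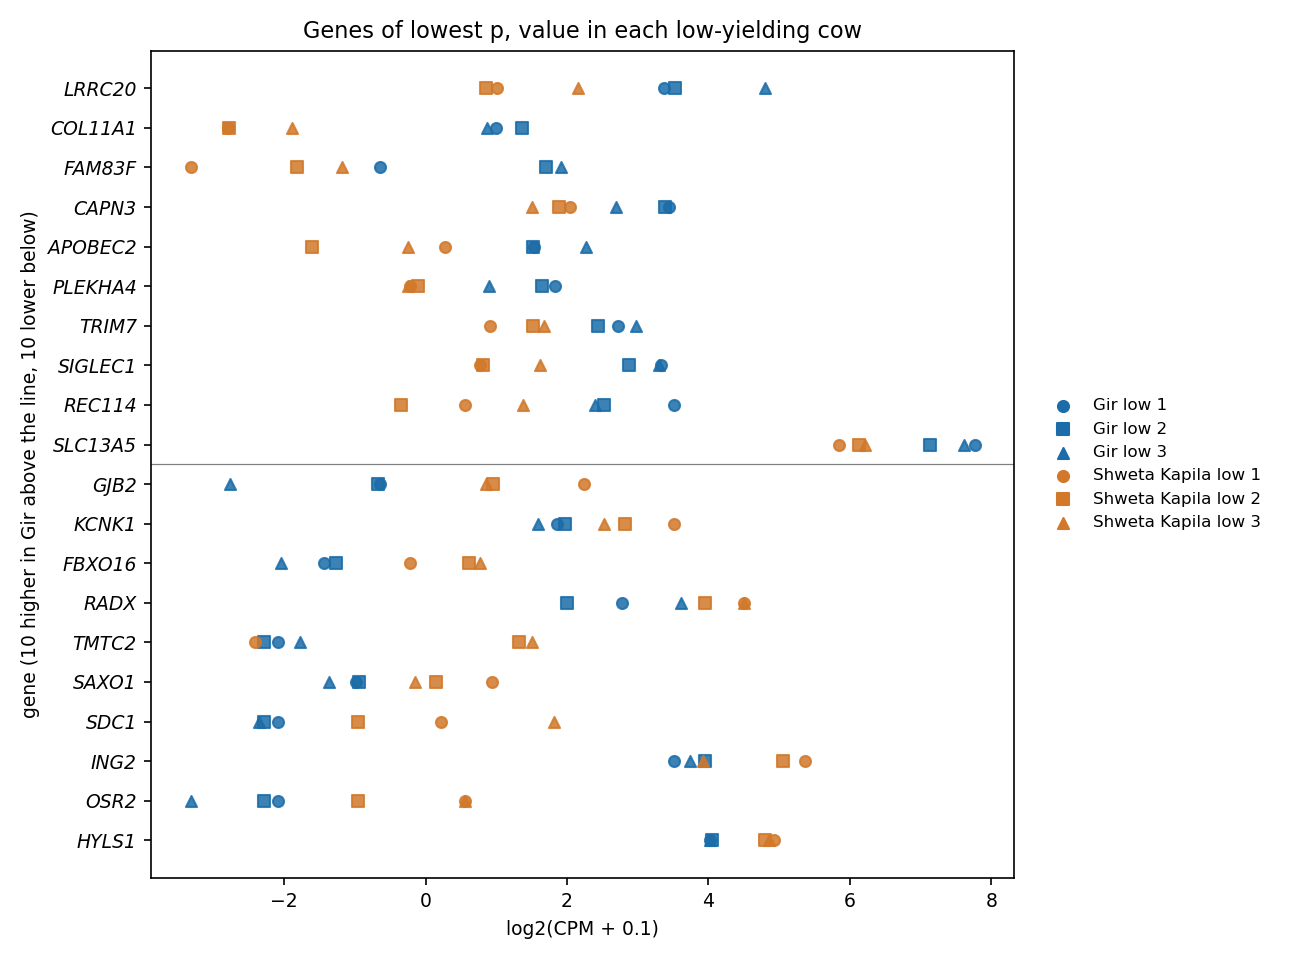
Level in each low-yielding cow of the 10 genes with a symbol that had the lowest p in each direction, as log2(CPM + 0.1). Blue points are Gir and orange points Shweta Kapila, and the marker shape gives the cow. All but TMTC2 and ING2 separate the breeds, which the choice by lowest p favours.

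Several of the lowest p-values belonged to identifiers known only by a number. LOC109561202 had the lowest of all (4.68e-05), at 22.6, 46.1 and 47.7 CPM in Gir and 6.36, 5.11 and 1.94 CPM in Shweta Kapila (log2 fold change 3.11 ± 0.51). LOC109566689 was well counted and even within each breed, at 98.96, 98.12 and 106.9 CPM against 45.1, 46.5 and 55.5 CPM (1.05 ± 0.19). Identifier 109564265, which matched no symbol, gave 66 counts in Gir and 6 in Shweta Kapila. On the lower side LOC109559508 was at 8.89, 10.4 and 9.17 CPM in Gir and 77.9, 47.3 and 40.2 CPM in Shweta Kapila (−2.54 ± 0.50). LOC109559668 (−2.12 ± 0.46), LOC109569787 (−3.54 ± 0.77), LOC109561755 (−0.98 ± 0.22) and LOC109560686 (−1.92 ± 0.44) followed, and in all 8 of these identifiers the breeds did not overlap. DESeq2 called all 8.

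Numbered genes were more common among those of low p than among all genes tested. LOC numbers made up 161 of the 809 genes at an unadjusted p under 0.05 (19.9%) and 13.7% of the genes tested, and pseudogenes 70 of the 809 (8.65%) against 4.10%. Reads of near-identical copies can be split in ways that the sources used here do not state, and such copies are common among pseudogenes, so these values are less certain than those of single-copy genes. The 323 genes higher in Gir had a median level of 7.14 CPM over the 6 cows and the 486 lower ones 12.0 CPM, against 15.3 CPM for all genes. By position in the RefSeq gene table, 15 of 293 genes higher in Gir were followed by a tested gene that was higher too (5.12%, against 2.10% of all placed genes), and 24 of 425 lower genes by another lower one (5.65% against 3.03%). Such neighbours included the integrin subunits ITGA2 (log2 fold change −1.24) and ITGA1 (−1.27), the chemokine receptors CCR8 (−1.81) and CX3CR1 (−1.59), and the pair MYO5C (1.47) and GNB5 (1.06). These pairs were picked after their values were seen.

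The high-yielding cows gave a second reading of the breed difference in 6 animals that share no library with the low-yielding comparison. Of the 323 genes higher in low-yielding Gir cows, 222 were on the higher side in high-yielding Gir cows (68.7%, against 45.6% of all genes), and 41 were there at an unadjusted p under 0.05 (12.7%, against 3.00% of all genes). Of the 486 lower genes, 373 were on the lower side in high-yielding cows (76.7% against 54.4%) and 90 at an unadjusted p under 0.05 (18.5% against 4.89%). Read the other way, these are 8.87% of the 462 genes at that bound on the higher side in high-yielding cows and 11.9% of the 754 on the lower side. The opposite direction at the same bound was found for 7 of the 323 (2.17%, against 4.89% of all genes) and 8 of the 486 (1.65% against 3.00%). A gene with little spread has small p-values in both sets, since the fit of all 12 libraries shares its estimate of the spread. With each set of 6 fitted apart, which was added after the data were seen, 29 of 217 higher genes (13.4% against 3.44%) and 57 of 256 lower genes (22.3% against 5.31%) were past the bound in both sets.

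The overlap depended on which low-yielding Shweta Kapila cows were in the fit. Without low 3 the count at an unadjusted p under 0.05 went to 2676 higher and 2221 lower genes, of which 79 (2.95%) and 160 (7.20%) were also past the bound in high-yielding cows, against 3.00% and 4.89% of all genes. Without low 1 and low 2 it was 27 of 384 (7.03%) and 39 of 458 (8.52%). In high-yielding cows the breeds did not overlap for 926 genes on the higher side (6.01%) and 1033 on the lower (6.70%). Of the 131 genes past the bound in both sets, 84 separated the breeds in low-yielding cows, 110 in high-yielding cows and 65 in both, against 9.45%, 12.7% and 1.28% of all genes. The 131 were picked by a small p in both sets, which favours separation, so nothing is read from these counts. By name, 72 had a symbol, 49 a LOC number and 10 no match.

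COL11A1 was among the 131, chosen like the next genes after their values were seen, as those with the smallest larger p of the 2 sets. In high-yielding cows it stood at 1.68, 2.01 and 0.103 CPM in Gir against 0.0633, 0.107 and 0.0747 CPM in Shweta Kapila, so Gir high 3 lay near the Shweta Kapila cows (log2 fold change 3.85 ± 0.93). CAPN3 was at 11.0, 7.61 and 8.88 CPM against 4.43, 2.40 and 4.33 CPM, close to its levels in the low-yielding cows of each breed. SIGLEC1 was at 6.74, 14.4 and 21.3 CPM against 6.90, 1.60 and 2.35 CPM, with Gir high 1 just under Shweta Kapila high 1. DMBT1, a secreted scavenger receptor of mucosal defence, was at 3.53, 3.99 and 4.11 CPM against 1.42, 0.460 and 1.88 CPM in low-yielding cows and at 3.66, 6.96 and 7.74 CPM against 1.27, 1.39 and 0.896 CPM in high-yielding cows. The magnesium channel TRPM6 (log2 fold change 1.26 in either set) and the metalloreductase STEAP4 (1.38 and 1.37) followed, STEAP4 with an overlap of the breeds in low-yielding cows.

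On the lower side, KCNK1 separated the breeds in both sets. All 6 Gir cows lay between 2.88 and 3.83 CPM and all 6 Shweta Kapila cows between 5.65 and 11.39 CPM. SAXO1 was at 0.581, 0.869 and 0.413 CPM in high-yielding Gir and 3.48, 4.37 and 3.51 CPM in high-yielding Shweta Kapila cows (log2 fold change −2.60 ± 0.45). ADCY3, an adenylyl cyclase that makes cyclic AMP, had log2 fold changes of −1.31 in low-yielding and −1.85 in high-yielding cows, and ABHD15 of −1.22 and −2.06. SLAMF7, a receptor of cytotoxic and plasma cells, was at 60.5, 120.9 and 53.1 CPM against 402.7, 234.1 and 67.1 CPM in low-yielding cows, where Shweta Kapila low 3 lay within the Gir range (log2 fold change −1.59, −2.02 without low 3 and 0.233 without low 1 and low 2). In high-yielding cows it was at 152.7, 92.2 and 54.8 CPM against 245.2, 300.5 and 355.1 CPM, without overlap. OSR2 was the other gene of this group (log2 fold change −2.46 in high-yielding cows). No gene passed edgeR's test in high-yielding cows either, where 1216 genes were at an unadjusted p under 0.05 and the lowest adjusted value was 0.0788, while DESeq2 called 137.

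**Figure D3:**
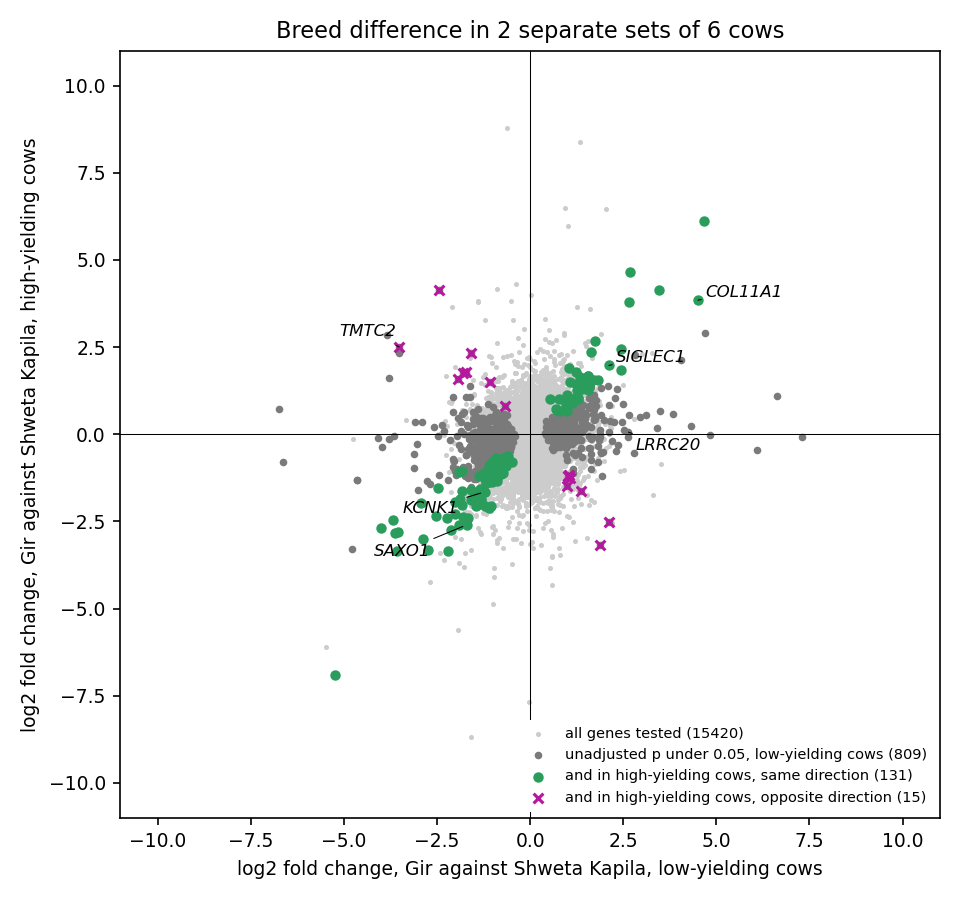
Log2 fold change of Gir against Shweta Kapila in low-yielding cows (horizontal) and in high-yielding cows (vertical) for 15420 genes, each point a gene. Green points (131) are at an unadjusted p under 0.05 in both sets in the same direction, and crosses (15) in opposite directions.

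The test of the breed difference between the yield classes, the breed by yield interaction, called 0 of 15420 genes with edgeR and 9 with DESeq2. The lowest adjusted p of edgeR was 0.955, and 587 genes were at an unadjusted p under 0.05. Several genes that led the low-yielding comparison nevertheless had smaller or opposite values in the other set. LRRC20 had a log2 fold change of 0.06 in high-yielding cows, LOC109561202 of 0.56, APOBEC2 of −0.47 and GJB2 of 0.36. The unadjusted interaction p of edgeR's quasi-likelihood test was 0.00169 for LRRC20, 0.00257 for LOC109561202, 0.00334 for APOBEC2 and 0.00395 for GJB2. RADX, at −1.41 in low-yielding cows, was at 0.72 in high-yielding cows (0.00182). TMTC2 was at −3.52 and 2.51, with the lowest interaction p of the named genes (0.000501). None of these differences passed the adjustment. The genes were picked for a low p in low-yielding cows and then for another value in high-yielding cows, which favours a low interaction p, so these p-values are a description and no test.

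Gene lists for blood cell types and pathways are given by how many members lay on either side of 0 and by their median, beside a median of −0.04 and 46.7% of genes on the higher side over all genes tested. No member of any list passed edgeR's test. Members at an unadjusted p under 0.05 are read against 2.09% of all genes on the higher and 3.15% on the lower side. Leaving out Shweta Kapila low 3 turned the sign of the median in 6 of 29 lists, and leaving out low 1 and low 2 in 10. Gir cows mattered too, as the sign turned in 6 lists without Gir low 1, 4 without Gir low 2 and 5 without Gir low 3. With limma-voom and sample weights it turned in 9. A single value after a gene's name below is its log2 fold change. Of the genes named below, HSPA8, HSP90B1, BUB1B, TOP2A, CX3CR1, FASLG, PDIA3, CTSS, CD86, CCDC88A, TLR3, FKBP5, JAK2 and SC5D lay on the higher side without low 1 and low 2, as did SLAMF7 above, and HDC lay on the lower side without Gir low 2. Other genes kept their side without Shweta Kapila low 1 and low 2 but were smaller, among them C3AR1 (−0.0661), TAPBPL (0.0685), ECHS1 (0.121), LAMP3 (−0.158), EPSTI1 (−0.165) and GP9 (0.204). Some were larger, such as MYL9 (1.13) and RPS6 (1.24).

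Chaperones, which fold proteins and rise in heat and other stress, lay mostly on the lower side in low-yielding Gir cows, with Shweta Kapila low 1 and low 2 above the rest. Of 26 heat shock and chaperone genes 22 were on the lower side and 4 on the higher, with a median log2 fold change of −0.40, and 6 were at an unadjusted p under 0.05, all lower. HSPH1, the nucleotide exchange factor of the HSP70 system, stood at 29.7, 25.3 and 32.0 CPM in Gir against 96.4, 80.4 and 38.4 CPM in Shweta Kapila (−1.31 ± 0.38). HSPA8, the constitutive HSP70, was at 1310, 1383 and 1658 CPM against 3985, 3273 and 1444 CPM (−1.0 ± 0.35). In HSPA8 the first pair of Shweta Kapila cows had levels above all others and low 3 lay among the Gir cows, and the log2 fold change was −1.32 without low 3 and 0.0155 without low 1 and low 2. Of these 6 only HSPH1 and HSPA2, an HSP70 first known from the testis, separated the breeds, the latter at 9.77, 11.9 and 10.3 CPM against 16.3, 17.7 and 15.3 CPM (−0.62 ± 0.24).

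Chaperones of the endoplasmic reticulum were high in the same pair of cows. HSP90B1, the reticulum's HSP90, was at 346.4, 367.4 and 459.6 CPM in Gir and at 1016, 1037 and 389.8 CPM in Shweta Kapila (−1.06 ± 0.38, −1.39 without low 3 and 0.0139 without low 1 and low 2). Of 18 genes of the unfolded protein response, 13 were lower and 5 higher (median −0.37), with PDIA6, a disulphide isomerase, at 129.8, 130.7 and 150.6 CPM against 208.1, 233.3 and 175.5 CPM. The median of the chaperone list was −0.66 without Shweta Kapila low 3 and 0.07 without low 1 and low 2, and that of the unfolded protein response −0.39 and 0.05. In high-yielding cows the medians were 0.05 and −0.23.

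Cell cycle and DNA replication genes, which mark dividing cells, were split in the same way. Of 29 members 22 were lower and 7 higher in Gir (median −0.53), with 3 at an unadjusted p under 0.05, all lower. BUB1B, a kinase of the spindle checkpoint, was at 5.50, 5.30 and 3.92 CPM in Gir and 18.5, 12.5 and 3.60 CPM in Shweta Kapila. TOP2A, the topoisomerase of dividing cells, was at 37.9, 57.5 and 34.6 CPM against 160.4, 92.8 and 25.4 CPM. For both genes Shweta Kapila low 3 was the lowest of the 6 cows. Without it the log2 fold changes were −1.66 for BUB1B and −1.55 for TOP2A, and without low 1 and low 2 they were 0.455 and 0.785. The list's median was −0.82 without low 3 and 0.37 without low 1 and low 2. Depth and the share of counts on unnamed identifiers (13.1% and 11.7%) were highest in the same pair of cows, and their part in these values was tested only as a covariate. With the share as a covariate the medians were −0.08 for the cell cycle list, −0.06 for the chaperones and −0.13 for the unfolded protein response. With log2 total count as a covariate these medians also stayed on the lower side, and their sizes are not given here. Among all 29 lists the sign of the median turned in 7 with the share and in 6 with log2 total count.

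Plasma cells are the antibody-secreting stage of B cells, and their genes lay almost all on the lower side in Gir. Of 12 members 11 were on the lower side (median −0.65), and 4 were at an unadjusted p under 0.05, all lower. Beside SDC1 these were SEC11C, a signal peptidase subunit (30.9, 30.5 and 21.6 CPM against 57.7, 54.4 and 35.7 CPM), the secretory factor XBP1 (−0.53 ± 0.24) and the plasma cell regulator PRDM1 (−0.83 ± 0.37). JCHAIN, which joins antibodies into polymers, was at 170.5, 106.9 and 183.5 CPM against 262.1, 278.1 and 243.3 CPM. The mean log2 CPM of the list was 4.90, 4.45 and 4.41 in Gir and 4.72, 5.00 and 5.71 in Shweta Kapila, where low 3 was the highest. The median stayed on the lower side without low 3 (−0.38) and without low 1 and low 2 (−0.68). It was −0.17 in high-yielding cows, where 5 of the 12 members were higher in Gir, SDC1 among them.

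Neutrophil genes lay mostly on the other side. Of 25 symbols 18 were tested, and of these 18 members 14 were higher in Gir and 4 lower (median 0.26). At an unadjusted p under 0.05 there were 2 members higher and 1 lower. The mean log2 CPM of the list did not overlap, at 5.39, 5.12 and 5.19 in Gir and 4.60, 4.62 and 4.91 in Shweta Kapila. The means of the red cell list and of the milk fat and milk trait list did not overlap either, with Gir above. ALPL, the alkaline phosphatase of mature neutrophils, stood at 53.4, 53.0 and 49.8 CPM against 9.29, 12.4 and 26.5 CPM (1.70 ± 0.48). PGLYRP1, a granule protein that binds bacterial cell walls, was at 1.49, 0.525 and 1.24 CPM against 0, 0.184 and 0.228 CPM. CXCL8, the chemokine that draws neutrophils, went the other way, at 3.73, 5.14 and 2.20 CPM against 9.20, 8.28 and 6.85 CPM (−1.14 ± 0.41). The median of the list was 0.48 without low 3, 0.42 without low 1 and low 2, and 0.59 in high-yielding cows, where 16 of 18 members were higher. In high-yielding cows the medians of monocytes (0.84), B cells (0.82), dendritic cells (0.705) and platelets (0.64) were higher still. The shift there was therefore not particular to neutrophils, while T cell (−0.72) and NK and cytotoxic genes (−1.74) lay on the lower side. The share of neutrophils in these preparations was not measured, so the part of cell numbers in the neutrophil values was not tested.

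**Figure D4:**
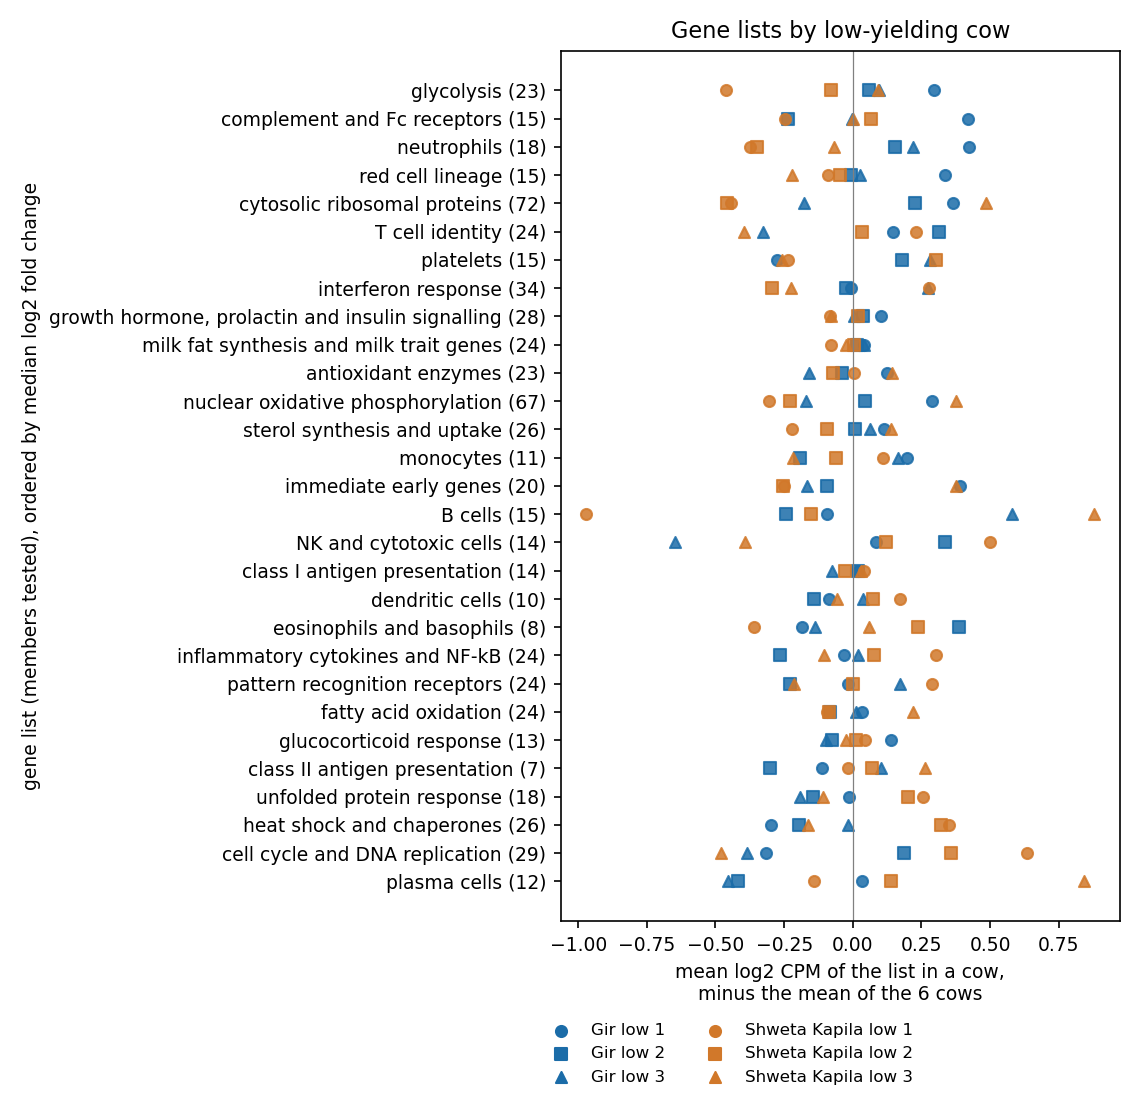
Mean log2 CPM of each gene list in each low-yielding cow, minus the mean of the 6 cows, with the number of members tested in brackets. Lists are ordered by their median log2 fold change, and each point is a cow. Gir cows lie above all Shweta Kapila cows in the neutrophil, the red cell and the milk fat and milk trait lists. The Shweta Kapila cows are split in the cell cycle, ribosomal protein and chaperone lists.

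Red cell genes were on the higher side in 10 of 15 members (median 0.24), with the urea transporter SLC14A1 at 1.36, 1.42 and 2.15 CPM in Gir and 0.534, 1.01 and 0.856 CPM in Shweta Kapila, and the erythroid nuclear protein HEMGN at −2.41 ± 1.42. HEMGN gave only 6 counts in all in Gir and 39 in Shweta Kapila. In high-yielding cows SLC14A1 lay on the other side (log2 fold change −1.16). Platelet genes were split 9 to 6 (median 0.13), with the von Willebrand receptor subunit GP9 at 1.18 ± 0.64 (2.15 without Shweta Kapila low 3) and the myosin light chain MYL9 at 0.63 ± 0.35. Eosinophil and basophil genes were split 4 to 4 (median −0.10), with the interleukin 5 receptor IL5RA at 24.0, 22.2 and 24.5 CPM against 27.6, 37.9 and 36.4 CPM, and HDC, the enzyme that makes histamine, at 1.56 ± 1.48.

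Lymphocyte, monocyte and dendritic cell lists had medians between −0.06 and 0.14 in low-yielding cows. T cell genes were higher in 14 of 24 members (median 0.14), against 6 of 24 in high-yielding cows (median −0.72). CCR7, the lymph node homing receptor, was at 393.5, 318.8 and 242.8 CPM in Gir and 114.1, 162.3 and 239.7 CPM in Shweta Kapila (0.89 ± 0.32). The co-receptor CD4 was at 323.8, 281.0 and 270.3 CPM against 192.8, 207.9 and 241.2 CPM (0.45 ± 0.20), and in both genes the breeds did not overlap. NK and cytotoxic genes were higher in 6 of 14 members (median −0.04), with the activating receptor NCR3 at 1.00 ± 0.48 and the death ligand FASLG at −1.89 ± 0.86. In high-yielding cows 13 of the 14 were lower in Gir (median −1.74).

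B cell genes were higher in 6 of 15 members (median −0.02), with BLNK, the adaptor of the B cell receptor, at 52.5, 32.7 and 69.9 CPM in Gir and 68.7, 84.8 and 92.9 CPM in Shweta Kapila (−0.67 ± 0.29), and the kinase BLK at 0.33 ± 0.28. This list had the widest spread between the Shweta Kapila cows, at a mean log2 CPM of 5.67, 6.49 and 7.52, and its median was 0.73 without low 3 and −0.84 without low 1 and low 2. Monocyte genes were higher in 6 of 11 members (median 0.01). Among them the fractalkine receptor CX3CR1, which cytotoxic lymphocytes also carry, was at 217.0, 313.2 and 130.0 CPM against 1186, 660.3 and 147.6 CPM (−1.59 ± 0.64, −2.07 without low 3 and 0.588 without low 1 and low 2). The Fc receptor FCGR1A was at 1.67 ± 0.72, from 43 counts in all in Gir and 14 in Shweta Kapila. Dendritic cell genes were higher in 3 of 10 members (median −0.06), with LAMP3 at 486.8, 457.4 and 465.0 CPM against 911.9, 694.8 and 527.4 CPM (−0.60 ± 0.23) and CCDC88A at −0.71 ± 0.53. LAMP3 was at −0.63 in high-yielding cows. There 14 of 15 B cell genes were higher in Gir (median 0.82), 10 of 11 monocyte genes (0.84) and 9 of 10 dendritic cell genes (0.705).

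Immune response lists had medians between −0.37 and 0.27. Interferon response genes were higher in 18 of 34 members (median 0.12), with EPSTI1 at 161.8, 137.2 and 159.8 CPM in Gir and 307.2, 249.3 and 172.5 CPM in Shweta Kapila (−0.67 ± 0.23) and IFI35 at 0.67 ± 0.29. SIGLEC1, which interferon induces in monocytes, is no member of that list. Class I antigen presentation was split 7 to 7 (median −0.06), with the disulphide isomerase PDIA3 at −0.84 ± 0.36 and TAPBPL at 0.52 ± 0.30. All 7 measured members of the class II list were lower (median −0.37), led by the protease CTSS at −0.76 ± 0.39 and the costimulator CD86 at −0.82 ± 0.43. The 7 hold none of the class II molecules themselves, whose symbols had no match, and the median was 0.03 without Shweta Kapila low 3.

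Inflammatory and NF-kB genes were higher in 9 of 24 members (median −0.12), and the 3 at an unadjusted p under 0.05 were all lower in Gir. Beside CXCL8 these were the early activation marker CD69, at 41.2, 31.6 and 25.7 CPM against 98.9, 56.6 and 43.9 CPM (−1.02 ± 0.38), and the interleukin 12 subunit IL12B (−1.93 ± 0.80). IL12B was scarce, at 0.272, 0 and 0.382 CPM in Gir against 1.33, 0.736 and 0.457 CPM in Shweta Kapila. CD69 was at −1.11 in high-yielding cows and IL12B at 1.60. Pattern recognition receptors were higher in 8 of 24 members (median −0.12), with the RNA sensor TLR3 at −0.87 ± 0.45 and NOD1 at 0.70 ± 0.38. Complement and Fc receptor genes were higher in 9 of 15 (median 0.27), with the anaphylatoxin receptor C3AR1 at −0.77 ± 0.44.

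Genes of protein synthesis and respiration differed more among the Shweta Kapila cows than between the breeds. Cytosolic ribosomal protein genes were higher in Gir in 49 of 72 members (median 0.20), with a mean log2 CPM of 8.61, 8.47 and 8.07 in Gir and 7.80, 7.79 and 8.73 in Shweta Kapila. RPS29 was at 1.56, 21.3 and 10.5 CPM against 0.489, 0.552 and 2.17 CPM (log2 fold change 3.40 ± 1.16, and 4.41 without low 3), and RPS6 at 0.58 ± 0.34. These genes have many processed copies, and how reads were shared among copies is not stated. Nuclear genes of oxidative phosphorylation were higher in 39 of 67 members (median 0.06). At an unadjusted p under 0.05 there were 1 member higher and 2 lower. Within complex II, the succinate dehydrogenase, the subunits SDHB and SDHC stood on opposite sides. SDHC was picked after its values were seen, and the remaining subunits are not given here. SDHB was at 103.8, 94.9 and 110.2 CPM in Gir and 207.5, 167.9 and 135.8 CPM in Shweta Kapila (−0.73 ± 0.26), and SDHC at 107.4, 98.0 and 104.1 CPM against 39.8, 46.5 and 85.5 CPM (0.85 ± 0.30), both without overlap. SDHB was at −0.391 without low 1 and low 2. In high-yielding cows SDHB was at −0.04 and SDHC at 0.40. COX7C, of the terminal oxidase, was at −1.24 ± 0.42. Medians of the ribosomal and respiratory lists were 0.56 and 0.25 without low 3, −0.26 each without low 1 and low 2, and −0.44 each in high-yielding cows.

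Antioxidant genes were higher in 13 of 23 members (median 0.08), but the 3 at an unadjusted p under 0.05 were all lower in Gir and separated the breeds. Catalase, CAT, was at 51.0, 35.1 and 58.9 CPM against 133.2, 113.0 and 87.6 CPM (−1.20 ± 0.39). GCLM, of glutathione synthesis, was at −0.86 ± 0.37 and thioredoxin TXN at −0.79 ± 0.35. Glucocorticoid response genes were higher in 6 of 13 members (median −0.20), with the kinase SGK1 at −0.61 ± 0.35 and the co-chaperone FKBP5 at −0.61 ± 0.38. Immediate early genes were higher in 9 of 20 (median −0.01), with FOSL2 at 0.98 ± 0.38 and FOS at 24.2, 10.1 and 10.7 CPM against 65.5, 24.7 and 17.9 CPM (−1.27 ± 0.56).

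Of metabolic lists, glycolysis had most members on one side. It was higher in Gir in 19 of 23 members (median 0.29), led by PFKFB4, which sets the level of the activator of phosphofructokinase, at 88.4, 62.8 and 88.0 CPM against 45.4, 40.2 and 55.4 CPM (0.76 ± 0.35), and by PFKFB2 (0.75 ± 0.38). In high-yielding cows 15 of 23 were higher (median 0.18) and PFKFB4 was at 0.74. The median in low-yielding cows was 0.60 without Shweta Kapila low 3 and 0.07 without low 1 and low 2.

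Fatty acid oxidation genes were higher in 10 of 24 members (median −0.16). PDK4 is the kinase that shuts pyruvate dehydrogenase. It was at 8.14, 7.24 and 13.2 CPM in Gir and 29.4, 20.8 and 9.71 CPM in Shweta Kapila (−1.07 ± 0.47). The log2 fold change of PDK4 was −1.39 without low 3 and −0.0171 without low 1 and low 2. In high-yielding cows PDK4 was at 1.5. ECHS1 was at 0.60 ± 0.29 in low-yielding cows. The list of milk fat synthesis and milk trait genes was higher in 14 of 24 (median 0.08), and 3 of its members led. ABCG2, the transporter of riboflavin and urate into milk, was at 14, 18.6 and 17.2 CPM against 9.83, 8.83 and 10.3 CPM (0.78 ± 0.24). FABP5, a fatty acid carrier, was at 6.04, 6.45 and 7.74 CPM against 23.5, 20.8 and 7.14 CPM (−1.35 ± 0.40), and the microsomal MGST1 at 50.3, 45.5 and 51.1 CPM against 123.7, 69.0 and 60.3 CPM (−0.78 ± 0.28). The breeds did not overlap for ABCG2 and MGST1, and for FABP5 Shweta Kapila low 3 lay among the Gir cows, with a log2 fold change of −1.71 without low 3 and −0.0709 without low 1 and low 2. Growth hormone, prolactin and insulin signalling was higher in 16 of 28 (median 0.10), with the insulin receptor INSR at 0.37 ± 0.23 and JAK2 at −0.67 ± 0.42. Sterol synthesis and uptake was higher in 14 of 26 (median 0.06), with SC5D, an enzyme late in cholesterol synthesis, at −0.83 ± 0.45.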

How the data were processed

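Blood RNA of 12 cows was sequenced from strand-marking libraries without ribosomal RNA, per the labels' protocols. The authors deposited expected counts, unscaled, and 78.6% of values above 0 are not whole (tolerance 1e-06). Trimmomatic and FastQC stand without versions in the submitters' processing notes, and for aligner, counter, strand setting and build the entry is "not given in the sources used here". Rounded counts went through edgeR 4.0.16 (R 4.3.3): filterByExpr (minimum count 10, total 15), TMM, and a robust quasi-likelihood fit of 4 group means of breed and yield over 12 libraries. Tests were 2-sided, adjusted by Benjamini-Hochberg at 0.05. DESeq2 1.42.0 and voom in limma 3.58.1 were alternatives, and Python 3.11.15 made summaries and plots. The code was tested on simulated counts. A count of 10 equals 0.445 to 0.679 CPM in the low-yielding libraries. A standard error is the log2 fold change over the square root of F. List means used log2 CPM with a prior count of 2.

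Symbols came by identifier from the RefSeq table of NIAB-ARS_B.indTharparkar_mat_pri_1.0 and matched 22754 identifiers (86.8%). Of the genes tested 11896 had a symbol, 2116 a LOC number and 1408 no match. Named by rule were the 10 symbols and 5 identifiers of lowest p on each side and the 2 members of lowest p of each of 29 lists. All other genes were chosen after their values were seen. A further rule for called genes named none. A gene that the rule names is not reported here. The comparison and lists were chosen with earlier results of these data known, and no list was tested. Replicate libraries of a low-yielding group differed far beyond sampling noise (chi-square over degrees of freedom, 32.5 to 364). P-values set a breed difference against the spread between cows of a group, which the main fit reads from all 12 libraries.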

Additional observations from a re-analysis of the deposited data

How the results depend on the processing

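The 0 calls of edgeR became 21 with DESeq2, 5784 with limma-voom and sample weights, 3417 with the 5 low-yielding libraries other than Shweta Kapila low 3 (chosen after seeing the data), and 4 without Shweta Kapila low 1 and low 2. Leaving out 1 library at a time gave 0 to 4 calls, with 1 without Gir low 2 and 4 without Shweta Kapila low 3. Genes at an unadjusted p under 0.05 numbered 3965 higher and 3535 lower with voom, 3128 and 2989 in the 5 libraries, and 275 lower in the 6 low-yielding libraries alone. With 1 library left out and the filter renewed they ran from 166 to 2697 higher and from 225 to 2235 lower, the highest values without Shweta Kapila low 3.

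In high-yielding cows the 0 calls became 137 with DESeq2, 226 with voom, 164 with log2 total count as a covariate, 6 with the share of short identifiers as one, 3 with no count filter, 18 in the 6 high-yielding libraries alone, 9 without Shweta Kapila low 1 and low 2, and 0 to 8 with 1 low-yielding library left out. For the interaction they became 9 with DESeq2, 1321 with voom, and 0 to 1 with a library left out. Same-numbered cows of the breeds did not deviate together (r = −0.23, 0.05 and −0.22). With the replicate number as a block, 0 genes were called, 231 were higher and 305 lower at an unadjusted p under 0.05, and high-yielding cows gave 4 calls. The cause of these shifts was not tested.

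Without Shweta Kapila low 1 and low 2, log2 fold changes turned to 0.0155 for HSPA8, 0.233 for SLAMF7, 0.0139 for HSP90B1, 0.588 for CX3CR1, 0.455 for BUB1B, 0.296 for PDIA3, 0.785 for TOP2A, 1.85 for FASLG, 0.318 for CTSS, 0.609 for TLR3, 0.684 for CD86, 0.421 for SC5D, 0.546 for FKBP5, 0.59 for JAK2 and 0.932 for CCDC88A. With the share of short identifiers as a covariate they turned to 0.102 for FASLG, 0.00726 for CTSS, 0.023 for TLR3, 0.162 for CD86, 0.15 for FKBP5, 0.201 for JAK2 and 0.425 for CCDC88A, and with log2 total count to 0.0104 for JAK2 and 0.143 for CCDC88A. HDC ran from −0.30 without Gir low 2 to 4.98 without Shweta Kapila low 2. Of the 90 named genes 14 passed in DESeq2 and 75 in voom, and 68 of 87 in the 5 libraries. Upper quartile scaling turned the median of 2 lists, both of them within 0.05 of 0, and DESeq2's size factors that of none.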
